A study of Mus musculus with 17 samples.

Results

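The genes described here are 8 surface receptors and antigens commonly used to tell monocyte-derived macrophages from other myeloid cells: Ccr2, Cx3cr1, Csf1r, Itgam, Itgax, Ly6c2, Cd14 and Adgre1. They were found by gene symbol among the 17556 genes listed in any of 3 deposited expression tables, for sorted tumor cells, TRMs and MDMs from mouse lung tumors. The MDM table listed all 8 and the tumor cell and TRM tables listed 7 each, without Ly6c2. TRMs and MDMs are the labels of the sorted populations, and the sources used here neither spell the abbreviations out nor give the gates that define them. The tumor cells were sorted as CD45-CD31-EpCAM+ in the results of the study, although its methods also write CD45+ in places.

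KL mice carried Lkb1fl/fl beside another Cre-dependent allele, and an adenovirus encoding Cre (Ad-Cre), given through the nose, removed Lkb1 (gene symbol Stk11) in infected lung cells and started the tumors. KLG4 mice carried the same alleles and Gpx4m/m, in which rox sites flank Gpx4 exons and a Dre recombinase fused to an estrogen receptor sits behind a STOP cassette under the CAG promoter. Cre removes the STOP and tamoxifen then lets Dre cut out the Gpx4 exons, so the deletion was designed for cells that Ad-Cre had reached, and not for macrophages. Mice of both genotypes were on a C57BL/6 background, 8 to 10 weeks old at infection and sex-matched by the study's account, and received Ad-Cre and, from 5 weeks later, tamoxifen for 2 weeks. Cells were taken 10 weeks after infection. Each population was profiled by bulk RNA sequencing in 2 KL and 2 KLG4 libraries, 12 libraries in 6 groups, and the labels do not say from how many mice a library came. By the study's account the tumor cell replicates came from separate mice, although each of these libraries carried female and male transcripts (below). For TRMs and MDMs nothing in the sources used here says that replicates came from separate mice. Where they did not, p-values measure only the spread between these samples.

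Blood monocytes enter tumors along chemokine gradients and become macrophages there, while resident lung macrophages, seeded early in life, sit mainly in the alveoli. CCR2 is the receptor for CCL2 and draws inflammatory monocytes out of the bone marrow, CX3CR1 binds fractalkine and marks patrolling monocytes and many tissue macrophages, and CSF1R passes the survival signal of CSF1 and IL-34. ITGAM (CD11b) and ITGAX (CD11c) are the alpha chains that pair with the beta-2 chain ITGB2 to form complement receptors 3 and 4, and in the lung CD11b is typical of recruited cells and CD11c of alveolar macrophages. Ly6c2 encodes the Ly6C antigen of inflammatory monocytes, CD14 hands lipopolysaccharide to TLR4, and Adgre1 encodes F4/80, the classical mouse macrophage antigen. None of the 8 belongs to macrophages alone, since neutrophils carry much CD11b and dendritic cells carry CD11c.

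Values are RPKM, reads scaled to the length of the gene and to all reads counted in the library, which came to between 9.14 M and 36.6 M. Each table was tested alone with limma on log2(RPKM + 0.1), for genes at 1 RPKM or more in at least 2 of the 4 libraries, and a gene was called at an adjusted p under 0.05 (Benjamini-Hochberg over all genes of the table). The tables were normalized separately, so levels are set side by side between populations without a test. Replicate pairs differed by far more than counting noise, with a chi-square per gene of 28.9 to 131.6, except the KLG4 tumor cell pair at 3.28, whose spread may not be that between animals and whose comparison may therefore hold too many calls. In the libraries themselves, Gpx4 in tumor cells was at 95.0 and 76.8 RPKM for KL against 56.4 and 61.9 RPKM for KLG4, counted over the whole gene (log2 fold change -0.53). In TRMs it was at 89.8 and 88.2 RPKM for KL against 53.8 and 57.0 RPKM for KLG4 (-0.68). In MDMs it was higher in KLG4, at 44.9 and 71.3 RPKM against 93.6 and 97.7 RPKM (0.76). A lower level in KLG4 was thus not particular to tumor cells, and the cause was not tested. Stk11, the Lkb1 gene, was higher in KLG4 in all 3 populations, at 25.9, 25.8, 61.6 and 61.6 RPKM in tumor cells in KL replicates 1 and 2 and KLG4 replicates 1 and 2 (log2 fold change 1.25, adjusted p of 9e-04 in limma), with adjusted p-values of 0.059 in TRMs and 0.68 in MDMs, so its level does not show an equal loss of Lkb1 in both genotypes. Mitochondrially encoded genes took 13.2% and 9.18% of the reads in KL TRMs and 1.43% and 2.40% in KLG4 TRMs. They took 4.21% and 5.13% in KL tumor cells against 8.95% and 8.88% in KLG4, and 1.35% and 3.36% in KL MDMs against 0.494% and 0.661% in KLG4. Over the reads outside these genes, the count called among the genes described here was 7 in tumor cells and 0 in MDMs, and in TRMs it went from 2 to 1, as Csf1r lost its call (adjusted p of 0.065 in limma). The median of all 10990 genes tested in TRMs was shifted by 0.38 on the log2 scale towards KLG4, which rescaling by the median of ratios brought to 0.02. Xist, the RNA that coats the silenced X, read 0.257 and 0.501 RPKM in KL TRMs against 18.3 and 20.2 RPKM in KLG4 TRMs, so genotype and sex cannot be told apart in that population. All 4 tumor cell libraries held both Xist (4.17 to 6.18 RPKM) and the Y-linked Eif2s3y (7.27 to 9.26 RPKM). Cells of 1 mouse would not give both at such levels, so each library may pool mice. The tumor cell p-values too may then measure only the spread between these samples.

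The sorted populations were first compared with their labels. The libraries labelled TRMs carried the alveolar macrophage list of 15 genes at a summed 9926 to 14525 RPKM, with Chil3 (a chitinase-like protein abundant in alveolar macrophages) at 2953, 3150, 7512 and 6236 RPKM in KL replicates 1 and 2 and KLG4 replicates 1 and 2 in that order, which is used for all 4 values below. In the libraries labelled MDMs a list of 10 neutrophil genes summed to 23467, 10738, 19889 and 17913 RPKM, above the 10 pan-macrophage genes at 2849, 3139, 2809 and 2293 RPKM. S100a9, a calcium-binding protein that makes up much of the neutrophil cytosol, stood at 21106, 9379, 17917 and 16079 RPKM in MDMs and at 190.6, 116.3, 93.9 and 61.9 RPKM in TRMs. C1qa, a complement component made by tissue macrophages, was at 16.0, 92.7, 24.2 and 24.4 RPKM in MDMs. These levels go against a population made of macrophages alone, so MDM below means the libraries with that label. KL replicate 2 of the MDMs stood apart from the other 3, with the highest C1qa, the lowest S100a9 and Xist at 0.839 RPKM against 19.4 to 21.8 RPKM. It also held the most epithelial RNA. The MDM libraries summed to 76.9, 266.1, 18.8 and 60.4 RPKM over the epithelial list. Over the list of alveolar type 2 (AT2) epithelium they summed to 162.8, 386.3, 46.2 and 78.4 RPKM.

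**Figure D1:**
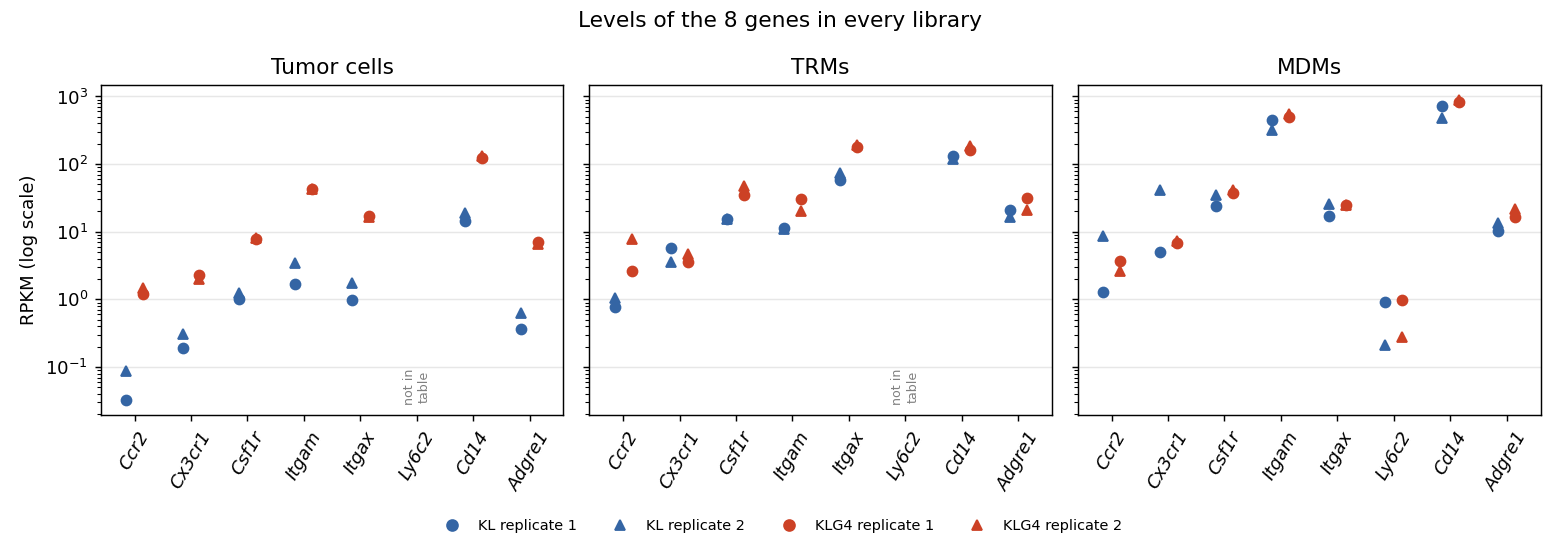
Levels of the 8 genes in RPKM on a log axis, for tumor cells, TRMs and MDMs. Each point is 1 library, with KL in blue, KLG4 in red, circles for replicate 1 and triangles for replicate 2. All 7 genes listed in tumor cells had both KLG4 libraries above both KL libraries, whereas in MDMs the widest gap was between the 2 KL libraries of Cx3cr1, at 5.07 and 42.0 RPKM.

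Across populations, each gene had its own order. Itgam and Cd14 were highest in MDMs, Itgax was highest in TRMs, and Csf1r and Adgre1 lay closer together. In order of mean level, Csf1r was highest in KLG4 TRMs, followed by KLG4 MDMs, whose libraries overlapped them, then KL MDMs, KL TRMs and both tumor cell groups, each below the one before with no overlap. For Adgre1 the order was KLG4 TRMs, KLG4 MDMs and KL TRMs, each overlapping the next, then KL MDMs and the tumor cells. In KL, the difference between MDMs and TRMs in mean log2(RPKM + 0.1) ranged from -1.62 for Itgax to 5.06 for Itgam, with a median of 1.66 over the 7 genes beside a median of -0.0026 over all 10417 genes at this level. In KLG4 it ranged from -2.90 for Itgax to 4.39 for Itgam, with a median of -0.07 beside -0.43 over 10695 genes. The KL median fell to 0.50 without MDM KL replicate 2, and the KLG4 median changed sign when the values were rescaled to a common sum (0.17) and without TRM KLG4 replicate 2 (0.21) or MDM KLG4 replicate 1 (0.012). In KL, 4 of the 7 had both MDM libraries above both TRM libraries, which held for 35.1% of all genes, and 2 had both below, which held for 33.7%. The shares of all genes in KLG4 were 31.2% above and 55.0% below, and of the 7 members 3 were above and 1 was below.

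The integrin chains differed between MDMs and TRMs in opposite directions. Itgam (GRCm38 chromosome 7, 128062640 to 128128160, plus strand) and Itgax (128129547 to 128150657, plus strand) are neighbours, 1.39 kb apart. The bases before the start site of each are shown because the genes lie side by side and yet ran in opposite directions between MDMs and TRMs. The sequences are from RefSeq (GRCm38.p6), 250 bases before the start site on the plus strand, at chr7:128062390-128062639 for Itgam and chr7:128129300-128129549 for Itgax. Capitals mark GAGGAA or its reverse complement TTCCTC, a core that PU.1 (gene symbol Spi1), a transcription factor of myeloid cells, can bind.
Itgam promoter: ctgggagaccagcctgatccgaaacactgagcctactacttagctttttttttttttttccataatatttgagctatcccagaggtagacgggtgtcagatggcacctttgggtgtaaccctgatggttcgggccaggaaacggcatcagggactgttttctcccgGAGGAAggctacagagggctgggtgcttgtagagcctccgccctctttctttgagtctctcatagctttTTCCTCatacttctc
Itgax promoter: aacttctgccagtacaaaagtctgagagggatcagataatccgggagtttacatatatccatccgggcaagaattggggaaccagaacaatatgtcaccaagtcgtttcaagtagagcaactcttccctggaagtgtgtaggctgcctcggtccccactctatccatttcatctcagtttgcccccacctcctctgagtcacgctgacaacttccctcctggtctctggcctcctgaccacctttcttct

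The Itgam window held the motif 84 and 15 bases before the start site and the Itgax window held none. Windows of 5 of the 8 genes were searched. Over the whole 300 bases of a window (250 before and 50 after the start), the motif was also in both Ly6c2 windows and in neither the Ccr2 nor the Cx3cr1 window, and 28.3% of all 32851 windows held it on either strand. This describes letters only, and occupancy was not measured here.

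Itgam was at 448.4, 316.2, 493.0 and 548.6 RPKM in MDMs and at 11.3, 11.1, 30.1 and 20.2 RPKM in TRMs. All 4 MDM libraries were above all 4 TRM libraries, by 34.1-fold between the means in KL and 20.7-fold in KLG4. Itgax ran the other way, at 17.4, 26.1, 25.2 and 24.7 RPKM in MDMs and 58.3, 73.9, 181.6 and 190.7 RPKM in TRMs, which were 3.04-fold higher in KL and 7.47-fold higher in KLG4. The ratio of Itgam to Itgax was thus 12.1 to 25.8 in MDMs and 0.106 to 0.194 in TRMs. Their partner Itgb2 overlapped between the populations in KL, at 325.4 and 304.1 RPKM in MDMs and 276.2 and 340.3 RPKM in TRMs. In KLG4 it was 1.75-fold higher in TRMs, at 616.1 and 593.2 RPKM against 373.2 and 319.0 RPKM in MDMs. Neutrophil genes were high in the same MDM libraries, and their part in the Itgam level was not tested.

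**Figure D2:**
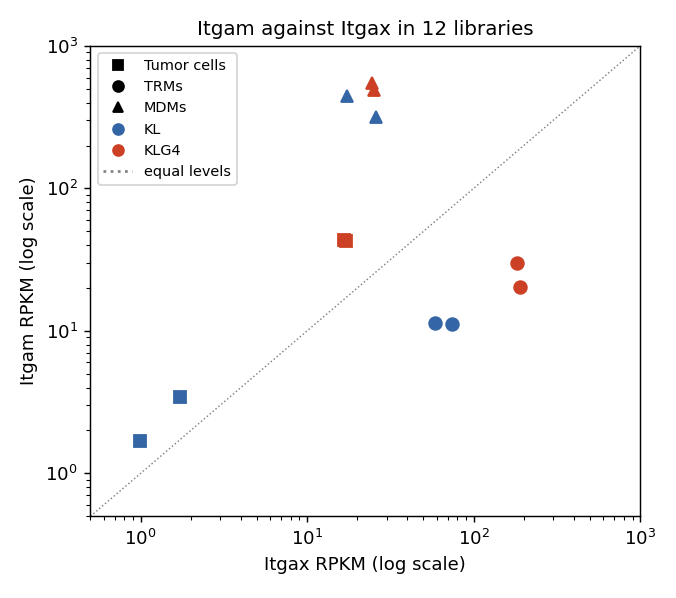
Itgam against Itgax in RPKM, both on log axes, with 1 point per library. Squares are tumor cells, circles TRMs and triangles MDMs, blue is KL and red KLG4, and the dotted line marks equal levels. The 4 MDM libraries lie above the line at ratios of 12.1 to 25.8, the 4 TRM libraries below it at 0.106 to 0.194, and the tumor cell libraries just above it at 1.70 to 2.59.

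In tumor cells, the 7 listed genes were all higher in KLG4 than in KL. They rose between 6.51-fold for Cx3cr1 and 17.2-fold for Itgam on the log2(RPKM + 0.1) scale, and all 7 were called by limma, where 20.6% of the 13770 genes tested were called higher. Both KLG4 libraries were above both KL libraries for all 7 and for 32.5% of all genes. Over the 7 the log2 fold change had a median of 3.18, beside -0.09 over all genes tested. Ccr2, Cx3cr1 and Adgre1 passed the filter through the KLG4 libraries alone and so had to differ, which leaves 4 genes that could have shown no difference. Those 4 had log2 fold changes between 2.72 for Csf1r and 4.10 for Itgam. The median over the 7 is the value of Ccr2 and so rests on that filter too. In bulk libraries, fewer cells of a type and less RNA per cell cannot be told apart.

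Among the chemokine receptors, Ccr2 was at 0.0323 and 0.0880 RPKM in KL tumor cells, from 8 and 18 reads, and at 1.19 and 1.49 RPKM in KLG4, from 142 and 160 reads. That is a log2 fold change of 3.18 (standard error 0.32, adjusted p of 0.0013 in limma). Cx3cr1 was at 0.194 and 0.308 RPKM in KL and 2.31 and 2.01 RPKM in KLG4 (log2 fold change 2.70, standard error 0.27, adjusted p of 0.0014 in limma). Both remained low in KLG4 tumor cells, below the level of any MDM library for Cx3cr1. Csf1r, the growth factor receptor on which most macrophages depend, was at 1.01 and 1.25 RPKM in KL and 7.77 and 8.19 RPKM in KLG4 (log2 fold change 2.72, standard error 0.19, adjusted p of 4.9e-04 in limma).

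The integrin chains were both higher in KLG4 tumor cells. Itgam was at 1.69 and 3.46 RPKM in KL and 43.0 and 43.4 RPKM in KLG4 (log2 fold change 4.10, standard error 0.33, adjusted p of 7.3e-04 in limma). Itgax was at 0.995 and 1.73 RPKM in KL and 17.1 and 16.7 RPKM in KLG4 (log2 fold change 3.59, standard error 0.27, adjusted p of 6.2e-04 in limma). The KLG4 Itgam level was thus above that of every TRM library. Cd14, the lipopolysaccharide co-receptor, was the highest of the 7 in tumor cells, at 14.3 and 19.2 RPKM in KL and 123.5 and 130.6 RPKM in KLG4 (log2 fold change 2.93, standard error 0.17, adjusted p of 3.4e-04 in limma). Adgre1 was at 0.370 and 0.632 RPKM in KL and 7.06 and 6.56 RPKM in KLG4 (log2 fold change 3.56, standard error 0.27, adjusted p of 6.4e-04 in limma). Without KLG4 replicate 1, or without KLG4 replicate 2, Ccr2, Cx3cr1 and Adgre1 failed the filter and the 4 others were tested. Such a fit leaves 1 library in a group, so only the size of the difference is given. With any 1 library left out, the log2 fold change was at least 2.586 for Csf1r and 3.604 for Itgam. It was at least 3.219 for Itgax and 2.716 for Cd14.

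**Figure D3:**
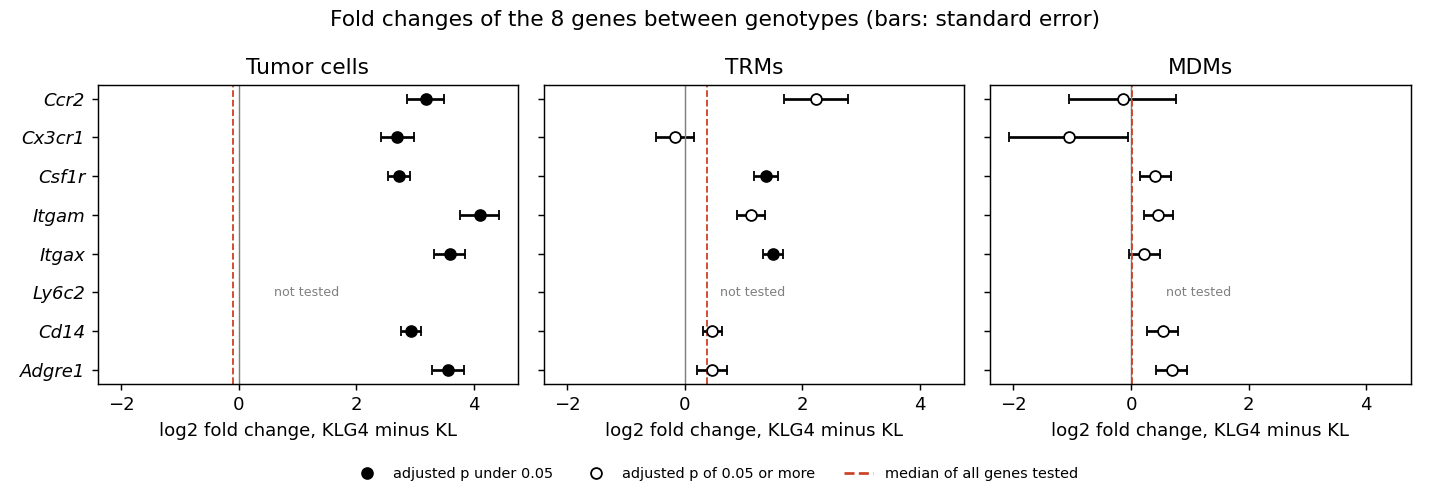
Log2 fold changes of the 7 genes tested, KLG4 minus KL, in tumor cells, TRMs and MDMs, with Ly6c2 listed as not tested and standard errors from limma as bars. Filled points had an adjusted p under 0.05 and the dashed line is the median of all genes tested, at -0.09 in tumor cells, 0.38 in TRMs and 0.02 in MDMs. All points lie between 2.70 and 4.10 in tumor cells, and only Csf1r and Itgax are filled in TRMs.

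Genes of other blood and stromal cells moved with the 7 in tumor cells. All 10 genes of the leukocyte list were called higher, 2 of them genes that passed the filter through KLG4 alone, at a median of 3.54 on the log2 scale, and they summed to 40.7 and 50.6 RPKM in KL and to 293.9 and 293.6 RPKM in KLG4. Ptprc (CD45, the surface phosphatase of leukocytes, absent from the gate as the results of the study give it) was at 0.834 and 2.06 RPKM in KL and 26.7 and 27.4 RPKM in KLG4. The neutrophil list had 8 of 9 tested genes called higher, 3 of the 9 passing the filter through KLG4 alone, and its sum went from 621.8 and 580.3 RPKM to 2725 and 2646 RPKM. The T cell list had 9 of 9 called higher, 7 of which passed the filter through KLG4 alone and so had to differ, and summed to 2.46 and 3.84 RPKM in KL and 67.3 and 76.1 RPKM in KLG4. The fibroblast list had 10 of 10 called higher, 6 of them of that kind, and summed to 13.2 and 18.2 RPKM in KL and 441.8 and 445.1 RPKM in KLG4. All 10 epithelial genes were called lower, as were 19.6% of all genes, among them Epcam, from 638.0 and 419.8 RPKM to 214.5 and 211.3 RPKM. Without KLG4 replicate 1, or without KLG4 replicate 2, the filter left fewer of these genes, and 7 of 8 leukocyte, 5 of 6 neutrophil, 2 of 2 T cell and 4 of 4 fibroblast genes tested were called, whereas 4 and 5 of 10 epithelial genes were. The part of such cells in the levels of the 7 genes was not tested.

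Ptprc itself rose by 4.26 in tumor cells on the log2(RPKM + 0.1) scale, more than any of the 7 genes. Set against Ptprc in the same library, most of the tumor cell differences therefore changed direction. Itgam per unit of Ptprc was 2.02, 1.68, 1.61 and 1.59, Csf1r was 1.21, 0.604, 0.291 and 0.300, and Cd14 was 17.1, 9.33, 4.62 and 4.77. For 6 of the 7 genes both KLG4 libraries were below both KL libraries on this ratio, and Ccr2 alone was above, at 0.0388, 0.0427, 0.0445 and 0.0544. A gene that rose less than Ptprc falls on this ratio, so the count restates the rise of Ptprc and is not particular to the 7. The share of all genes below on it was not computed. In the KLG4 tumor cells the mean level reached 8.29% of the MDM level for Itgam, 14.9% for Cd14, 20.4% for Csf1r, 31.0% for Cx3cr1, 35.3% for Adgre1, 42.8% for Ccr2 and 67.9% for Itgax.

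**Figure D4:**
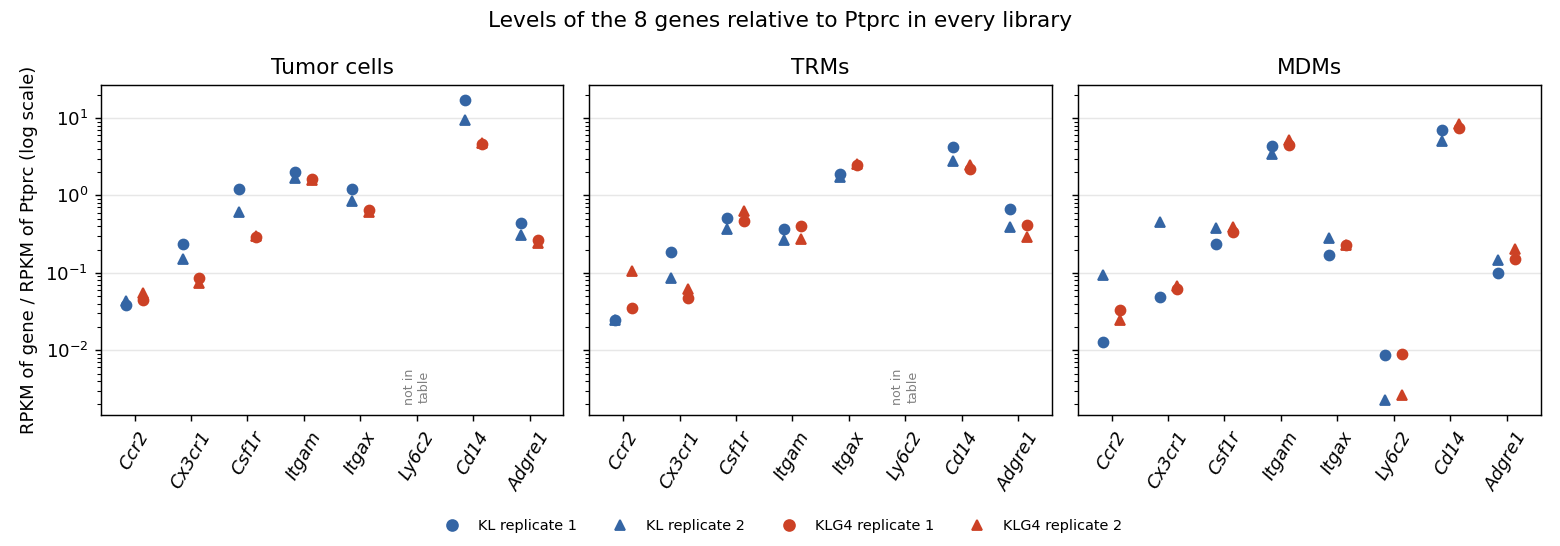
Levels of the 8 genes divided by Ptprc in the same library, on a log axis, for tumor cells, TRMs and MDMs, with KL in blue, KLG4 in red, circles for replicate 1 and triangles for replicate 2. In tumor cells Csf1r goes from 1.21 and 0.604 in KL to 0.291 and 0.300 in KLG4, and Itgam stays between 1.59 and 2.02.

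In TRMs, 6 of the 7 listed genes had both KLG4 libraries above both KL libraries, which was the case for 53.7% of the 10990 genes tested. Of these, 2 were called by limma, Itgax and Csf1r, where 1.36% of all genes were called higher. With no adjustment of p, 5 of the 7 passed 0.05 in that direction, where 25.5% of all genes did. Over the 7 the median log2 fold change was 1.13, beside 0.38 over all genes, so each value below is also given after subtracting 0.38.

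Itgax rose from 58.3 and 73.9 RPKM to 181.6 and 190.7 RPKM, a log2 fold change of 1.5 (1.12 after the subtraction, standard error 0.18, adjusted p of 0.035 in limma). Csf1r was at 15.7 RPKM in both KL libraries and at 35.3 and 47.3 RPKM in KLG4, a log2 fold change of 1.38 (1.00 after the subtraction, standard error 0.21, adjusted p of 0.047 in limma). Itgam had a log2 fold change of 1.13 (0.75 after the subtraction, standard error 0.24) and did not pass, with an adjusted p of 0.066 in limma. Ccr2 was at 0.769 and 1.04 RPKM in KL and at 2.65 and 7.84 RPKM in KLG4, so its KLG4 libraries were far apart, and it did not pass (log2 fold change 2.23, 1.85 after the subtraction, standard error 0.55, adjusted p of 0.082 in limma). Cd14 (132.0, 118.3, 163.2 and 183.1 RPKM) and Adgre1 (20.9, 16.7, 31.1 and 21.3 RPKM) had log2 fold changes of 0.47 and 0.46, or 0.087 and 0.080 after the subtraction. Cx3cr1 overlapped between genotypes at 5.82, 3.59, 3.53 and 4.64 RPKM (log2 fold change -0.17, or -0.55 after the subtraction, standard error 0.33).

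The TRM calls stood near the threshold. Of 10 other settings, Itgax lost its call under 2, median-of-ratios scaling (adjusted p of 0.053 in limma) and no mean-variance trend (0.095), and Csf1r under 6, with p-values up to 0.112. Csf1r also lost it without KL replicate 1 (0.061) and without KLG4 replicate 2 (0.051), whereas Itgam gained a call without KL replicate 2 (0.043) and without KLG4 replicate 2 (0.021), and Ccr2 gained one without KL replicate 2 (0.045, where 24.6% of all genes were called), without KLG4 replicate 1 (0.014) and with the replicate number as a block (0.036), all adjusted p-values in limma.

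In MDMs, 0 of the 7 tested genes were called, by limma on log2(RPKM + 0.1) or by voom on recovered reads, and 0 had an unadjusted p under 0.05 in limma. Both tools called 0 of all the genes they tested (0% of 10475 in limma, where 706, or 6.74%, had an unadjusted p under 0.05). Over the 7 the median log2 fold change was 0.41, beside 0.02 over all genes. In 4 of the 7, Csf1r, Itgam, Cd14 and Adgre1, both KLG4 libraries were above both KL libraries, as were 25.4% of all genes. Csf1r was at 24.3, 35.3, 36.9 and 41.2 RPKM, Cd14 at 725.7, 478.8, 823.6 and 887.8 RPKM, and Adgre1 at 10.2, 13.7, 16.7 and 21.9 RPKM with the log2 fold change of largest size among these, 0.69 (95% interval -0.01 to 1.40, adjusted p of 0.68 in limma).

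The chemokine receptors in MDMs turned on a single library. Cx3cr1 was at 5.07 and 42.0 RPKM in KL and 6.72 and 7.23 RPKM in KLG4, and Ccr2 was at 1.31 and 8.70 RPKM in KL and 3.65 and 2.60 RPKM in KLG4. For both, KL replicate 2 was the highest of the 4 libraries and KL replicate 1 the lowest. Their log2 fold changes were -1.06 (standard error 1.01) and -0.14 (standard error 0.91). Without KL replicate 1 they became -2.57 and -1.47 and were called (adjusted p of 0.017 and 0.030 in limma), as were Itgam at 0.72 (0.034) and Cd14 at 0.84 (0.025). That makes 4 of 7 called in a fit in which 25.5% of the 10166 genes tested were called in either direction. The KL arm then held 1 library, the one that stands apart, and the spread came from the 2 KLG4 libraries. Without KL replicate 2 they became 0.45 and 1.18 and were not called (0.37 and 0.27).

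Ly6c2 (chromosome 15, 75108158 to 75111970, minus strand) was listed in the MDM table alone, at 0.904, 0.211, 0.980 and 0.280 RPKM, which correspond to 46, 6, 70 and 20 reads. It did not pass the filter and was not tested. Replicates 1 of the 2 genotypes were close to each other and above both replicates 2. Its near-identical neighbour Ly6c1 was at 1.28, 1.15, 0.595 and 0.275 RPKM in MDMs and at 9.23, 8.42, 2.81 and 3.33 RPKM in tumor cells, where it was called lower in KLG4 (log2 fold change -1.50, adjusted p of 0.0020 in limma), and reads that match both copies could not be assigned here, so the level of either is uncertain.

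Ligands and partners of the 8 genes were examined as a list of 14. In tumor cells, 7 of the 12 tested were called higher and 2 lower, where 20.6% and 19.6% of all genes were, at a median of 1.07 on the log2 scale. The number called was 4 of 10 tested without KLG4 replicate 1 and 5 of 10 without KLG4 replicate 2, against 15.7% and 14.8% of all genes in these fits. Ccl2, the ligand of CCR2, was at 0.576 and 0.872 RPKM in KL and 42.9 and 35.6 RPKM in KLG4, a log2 fold change of 5.60 (adjusted p of 1.5e-04 in limma), and Ccl7, also a CCR2 ligand, was at 0.750 and 0.165 RPKM in KL and 16.8 and 21.8 RPKM in KLG4. Both passed the filter through the KLG4 libraries alone, so a difference between the groups was built into their selection. Csf1, the ligand of CSF1R, was at 0.693 and 1.01 RPKM in KL and 11.8 and 13 RPKM in KLG4 (log2 fold change 3.73), and Tlr2, a receptor that works with CD14, had a log2 fold change of 4.16. The 8 genes of the list tested in TRMs gave no call at an adjusted p under 0.05. At an unadjusted p under 0.05 in limma 3 were higher, as were 25.5% of all genes. The 9 tested in MDMs gave no call by limma and 2 lower at an unadjusted p under 0.05, where 6.74% of all genes passed in either direction. Since leukocyte and fibroblast genes moved in the same tumor cell libraries, whether epithelial cells made these ligands was not tested.

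Other myeloid receptors and regulators were also higher in KLG4 tumor cells. Of 12 growth factor and myeloid receptors, 11 were called higher at a median of 3.35 on the log2 scale, against 20.6% of all genes. Of the 12, 5 passed the filter through KLG4 alone and so had to differ, and 6 of the other 7 were called. Examples were Ccr1 (0.656 and 1.31 RPKM in KL, 25.9 and 28.3 RPKM in KLG4) and Csf3r, the receptor for the neutrophil growth factor G-CSF (1.08 and 3.56 RPKM in KL, 36.7 and 38.0 RPKM in KLG4). Of 14 myeloid transcription factors, 9 were called higher with a median of 0.89, of which 2 were of that kind, leaving 7 of 12 others called. Spi1 went from 1.67 and 2.98 RPKM to 26.3 and 26.7 RPKM. In TRMs, Csf2rb, a receptor chain for GM-CSF, was the 1 of 12 receptors called (log2 fold change 1.36, adjusted p of 0.047 in limma), and 2 of 13 factors were called, among them Cebpb at 1.79. In MDMs 0 genes of either list were called by limma. At an unadjusted p under 0.05 there was 1 receptor higher and 1 factor lower, where 6.74% of all genes passed in either direction. Without MDM KL replicate 1, 3 of 9 receptors and 8 of 13 factors were called, as were 10 of 11 interstitial and 8 of 12 alveolar macrophage genes, against 25.5% of all genes called in either direction in that fit.

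Lists that mark kinds of monocyte and macrophage were all partly higher in KLG4 tumor cells, where 6 of 11 classical monocyte genes, 6 of 9 non-classical monocyte genes, 7 of 10 interstitial and monocyte-derived macrophage genes, 10 of 13 alveolar macrophage genes and 8 of 9 pan-macrophage genes were called higher. Of these lists, 3, 4, 3, 2 and 1 genes in the same order passed the filter through KLG4 alone. Without either KLG4 library 2 of 8 classical and 3 of 5 non-classical genes tested were called, and 4 of 12 transcription factors, while the classical list had 10 called without KL replicate 1, a fit that called 48.8% of all genes. Vcan, which passed through KLG4 alone, led the classical list at a log2 fold change of 3.94, C1qb and C1qa the interstitial list at 4.85 and 4.04, and Chil3 the alveolar list at 3.85. In TRMs 1 gene of the classical list was called, Fn1, the matrix protein fibronectin, from 46.3 and 39.2 RPKM to 149.0 and 290.0 RPKM (log2 fold change 2.28, adjusted p of 0.043 in limma). Mrc1, the mannose receptor, was the 1 interstitial gene called there (1.41), and Marco, a scavenger receptor of alveolar macrophages, and Chil3 were called on the alveolar list (1.79 and 1.17). Without KL replicate 1 of the TRMs, the receptor, interstitial, alveolar and dendritic cell lists gave 0 calls. Of the remaining lists, dendritic cell genes had 7 of 7 called higher in tumor cells, 5 of them through the filter by KLG4 alone. In TRMs 2 of 6 were, where 1.36% of all genes were called higher. In tumor cells B and plasma cell genes had 6 higher (all 6 through KLG4 alone) and 1 lower of 7. Endothelial genes had 3 higher and 1 lower of 7 there (1 of the 7 through KLG4 alone). Of all genes in tumor cells, 20.6% were called higher and 19.6% lower. Without either KLG4 library the called genes of these lists were 2 of 2 tested, 1 of 1 and 1 of 6 in the same order. AT2 genes, which mark alveolar type 2 epithelium, had 9 of 10 called lower in tumor cells and 2 of 9 in TRMs, where 0.437% of all genes were called lower. No NK cell gene passed the filter in any population.

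**Figure D5:**
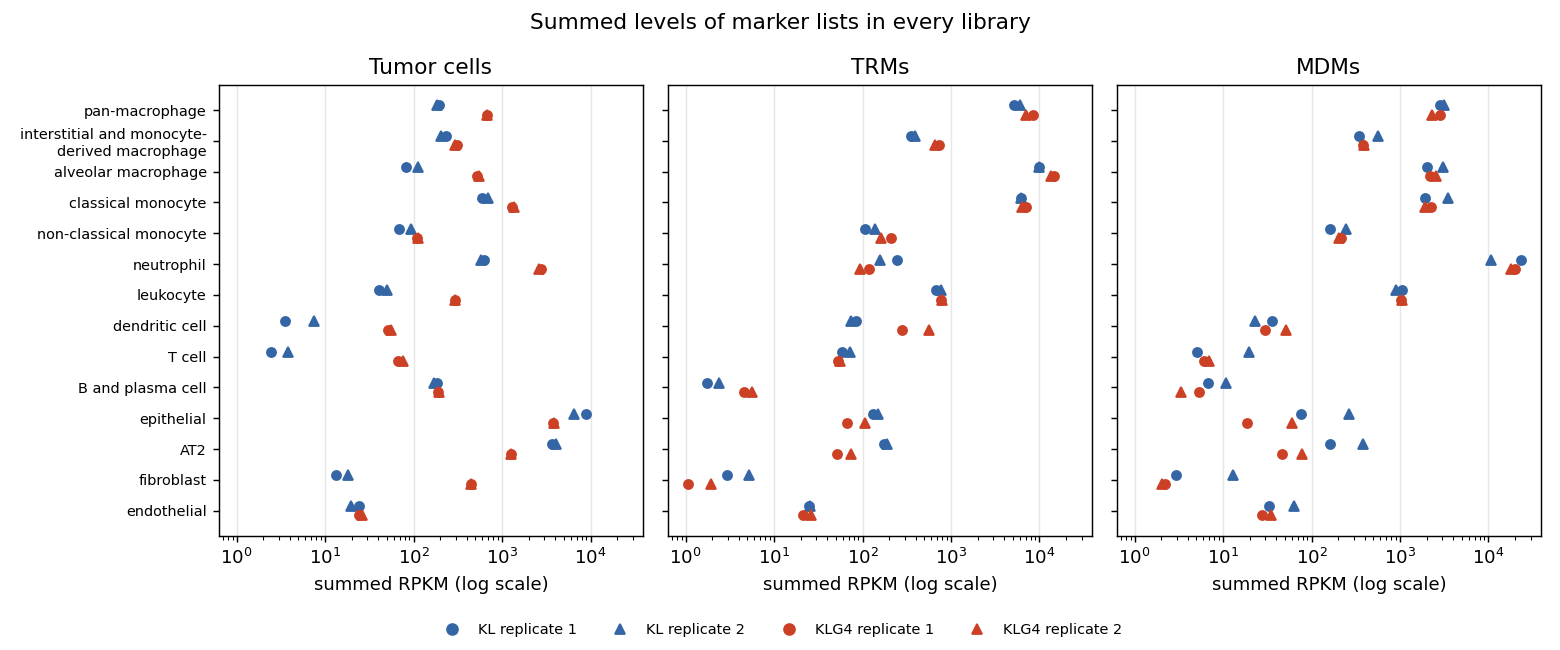
Summed RPKM of 14 marker lists on a log axis, for tumor cells, TRMs and MDMs. Each point is 1 library, with KL in blue, KLG4 in red, circles for replicate 1 and triangles for replicate 2. The neutrophil list is highest in MDMs, at 10738 to 23467 RPKM, the alveolar macrophage list is highest in TRMs, at 9926 to 14525 RPKM, and in tumor cells the leukocyte, T cell and fibroblast lists have both KLG4 libraries above both KL libraries.

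For each of the 7 genes, the genes with the most similar log2 level over the 12 libraries were found among 5391 genes with a mean of at least 5 RPKM that all 3 tables listed, unnamed gene models and receptor or antibody segments left out. These correlations are descriptions over libraries that share populations, and the low KL tumor cell libraries weigh on all of them. Itgam was most like Sh2b2 (Pearson r = 0.997) and Fyb (0.995), Hmgb1-ps8 being a pseudogene whose reads are uncertain (0.994). Cd14 was most like Snx20 (0.998), Tarm1 (0.996) and Ncf4 (0.995), the last a subunit of the phagocyte NADPH oxidase. Itgax was most like Mmp12, the macrophage elastase (0.987), Cd302 (0.986) and Abcg1, a cholesterol exporter (0.984). Csf1r was most like Rin3 (0.989), Sh3kbp1 (0.987) and Cfp, complement properdin (0.986). Adgre1 was most like Ikzf1 (0.989), Havcr2 (0.988) and Laptm5 (0.988). The chemokine receptors had weaker matches, with Ms4a4a (0.959), Fam111a (0.946) and Aif1 (0.940) for Cx3cr1 and Ifngr1 (0.943) and C1qa (0.940) for Ccr2. Among the 7 themselves, r was 0.956 between Itgam and Cd14, 0.950 between Csf1r and Adgre1 and 0.931 between Itgax and Adgre1, and 0.322 between the neighbours Itgam and Itgax.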

How the data were processed

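Bulk RNA sequencing libraries of sorted tumor cells, TRMs and MDMs were analysed, 12 of the 17 samples, grouped by title. The other 5 (CD8+ T cells and monocytes) are not analysed here. Paired reads were trimmed, per the labels and the study's methods (Trim Galore 0.6.4), aligned to GRCm38 (HISAT2 2.0.5) and counted per gene without regard to strand (featureCounts 2.0.0). The authors deposited RPKM values in a table per population, normalized separately, beside their own fold changes, p-values and test statistics, which were not used. The study names a count model, but the deposited values are RPKM, so limma (3.58.1, R 4.3.3) with a mean-variance trend was the test, two-sided and without covariates, on log2(RPKM + 0.1) for genes at 1 RPKM or more in 2 of 4 libraries. Fold changes on this scale understate those of low genes. Multiplied by gene length, values were whole multiples of a step per library for at least 99.98% of genes with a known length below 2000 reads (tolerance 0.05), which gave the depth. Odd counts were 17.4% to 32.5% of those below 30, as when both mates of a pair are counted, so counting noise may exceed what the totals imply. Counting without strand leaves overlapping genes uncertain. Gene lengths and coordinates are those of the deposited tumor cell table, and of GENCODE M21 (GRCm38) for Ly6c2.

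The 8 genes and all marker lists were chosen with earlier results of these data known. Of the 18 lists beside the 8 genes, up to 4 genes a list and population could be named, those with the largest fold change among called genes or the highest level where none was called, with Gpx4, Stk11, Xist and Eif2s3y as checks and the 3 genes most like each member. The ratio to Ptprc and the naming of Ly6c1 were chosen after the values were seen. The script was tested on simulated data. Alternatives covered the pseudocount, the filter, 3 scalings, the trend, voom on recovered reads, the replicate number as a block and leaving out each library. Some items that this rule would name are not reported here.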

Additional observations from a re-analysis of the deposited data

Results flagged for a closer look

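Some sums and 1 gene moved in opposite directions between populations, with both KLG4 libraries above both KL libraries in one and below in another. These differences between populations were not tested, and none of the 8 genes was among them. The mean of KLG4 over the mean of KL was 0.688 in tumor cells, 0.623 in TRMs and 1.65 in MDMs for Gpx4. For the summed neutrophil list it was 4.47 in tumor cells and 0.532 in TRMs, and for the T cell list 22.8 and 0.827. The T cell value spans 10 genes in tumor cells and 2 in TRMs, where Cd2 made up nearly the whole sum, so the values rest on different genes. For the fibroblast list it was 28.2 in tumor cells, 0.366 in TRMs and 0.267 in MDMs, over 10, 5 and 6 genes, so these values too rest on different genes. The neutrophil sums held 9 genes in tumor cells and 7 in TRMs. The pan-macrophage list gave 3.56, 1.38 and 0.852 in the same order, and the B and plasma cell list 1.09, 2.48 and 0.503. The last list held 9 genes in tumor cells and 2 elsewhere, and Sdc1, which epithelial cells also express, led its sums in KL tumor cells (180.4 and 166.5 RPKM) and fell to 68.4 and 67.1 RPKM in KLG4, while Jchain went from 0.304 and 0.631 to 101.0 and 111.5 RPKM. Cd2, Sdc1 and Jchain are named after their values were seen. Groups held 2 libraries each, so no library could be judged an outlier within its group.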

How the results depend on the processing

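Genes called in tumor cells numbered 7 under every alternative that kept all libraries, except the filter at a mean of 5 RPKM (3, all that were tested). Their median log2 fold change of 3.18 was 2.38 and 3.68 with pseudocounts of 1 and 0.01, 3.59 under that filter, 2.99 under quantile scaling, 3.79 with voom and 2.93 to 3.44 without a library. Ccr2, whose value is the median of 3.18, Cx3cr1 and Adgre1 passed the main filter through KLG4 alone. Under settings that keep the main filter their calls were thus built in. In TRMs, 2 calls became 1 with a pseudocount of 0.01, without a filter, under quantile scaling or for reads outside mitochondrially encoded genes, 0 under median-of-ratios scaling or without a trend, and 1 to 4 without a library. The TRM median of 1.13 was 0.76 under quantile scaling, 0.76 under median of ratios, 0.78 with voom and 0.84 to 1.17 without a library. In MDMs, 0 calls became 0 to 4 without a library, and the median stayed between 0.143 and 0.518. The level of MDMs minus TRMs, a median of 1.66 in KL, was 2.31 after rescaling to a common sum and 0.502 to 1.94 without a library, and in KLG4 -0.07 became 0.174 and -0.15 to 0.21. Signs changed in Csf1r in KLG4 (MDMs minus TRMs 0.174 after rescaling, -0.28 to 0.144 without a library), Ccr2 there (-1.32 to 0.210), Cx3cr1 in TRMs (-0.51 to 0.168), and in MDMs Ccr2 (0.014 with voom, -1.47 to 1.18 without a library), Cx3cr1 (-2.57 to 0.452) and Itgax (-0.065 to 0.518). The causes were not tested.

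The replicate numbers are shared by the genotypes, but the deviations of same-numbered libraries had correlations of 0.02 in tumor cells, -0.06 in TRMs and 0.05 in MDMs, so they share only a number. With the replicate number as a block, 7, 3 and 0 of the genes were called in tumor cells, TRMs and MDMs. Over all genes the block changed calls from 5543 to 5388, from 198 to 470 and from 0 to 0. With a library left out, its group holds 1 library, which is assumed to vary like the other group. With 2 libraries a group, the p-values rest on a spread pooled over genes.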
